A study of Rattus norvegicus with 8 samples.

Results

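The miRNAs described here are those of the miR-182, miR-183 and miR-96 cluster in rat kidney. They were taken by name, as every row of the count table named for miR-182, miR-183 or miR-96, in any letter case and with any arm suffix. Of the 620 rows of the table, 6 met this rule. They were rno-miR-182, rno-miR-183, rno-miR-96, the opposite arms rno-miR-183* and rno-miR-96*, and rno-mir-183*, a further row in lower case. A minimum of 10 reads in 4 or more of the 8 libraries was met by 4 of the 6, and these were tested between the groups.

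The samples were kidneys of male Big Blue rats, Fisher 344 animals that carry a transgene used as a mutation reporter and that were 6 weeks old at the start. The AA group (4 rats, AA1 to AA4) received aristolochic acid, a plant compound that damages kidney tubules and forms DNA adducts, as the sodium salt by gavage at 10 mg/kg on 5 days of each week over 12 weeks, and was killed 1 day after the last dose. The control group (4 rats, CTL1 to CTL4) was given saline in the same way, and both groups carried the transgene. One label field gives the tissue as liver, whereas the protocol gives the kidney. miR-122, the defining miRNA of hepatocytes, was between 0.696 and 5.89 CPM in 6 of the libraries. It was at 53.0 CPM in CTL1 and 523 CPM in AA2. CPM are read counts divided by the size of the library after TMM scaling, which corrects for differences in library composition. The libraries held 13412373 to 15616670 reads on known miRNAs, so that the limit set by a count of 0, taken as 3 reads, was at most 0.224 CPM before TMM scaling.

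Members of this cluster are cut from a shared primary transcript and act, like other miRNAs, by pairing of the seed (bases 2 to 8) with messenger RNAs that they repress. The cluster is best known from sensory cells such as hair cells and photoreceptors, where changes in the seed of miR-96 cause hearing loss. In tumours and injured tissue, miR-182 and miR-96 are known as repressors of FOXO transcription factors, which restrain growth and promote stress resistance. The RefSeq sequences of the mature miRNAs are shown because the members are alike in sequence, which bears on how well their reads can be told apart. Capitals mark the seed, the build is GRCr8, and the RefSeq arms 5p and 3p were matched to the table's names without and with a star.
rno-miR-183-5p: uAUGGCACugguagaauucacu
rno-miR-96-5p: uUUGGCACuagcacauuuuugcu
rno-miR-182: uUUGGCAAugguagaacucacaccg
rno-miR-183-3p: uGAAUUACcgaagggccauaa
rno-miR-96-3p: cAAUCAUGugcagugccaauau

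No seed of the 5 was identical to that of another of the 724 mature rat sequences in the RefSeq table. rno-miR-182 and rno-miR-96-5p had the same bases 2 to 7 and differed within the seed by A8C, with the base of miR-182 first and positions counted from 1 at the 5′ end. These were the 2 sequences of the table with these bases at positions 2 to 7. rno-miR-183-5p was at U2A and A8C against miR-182, and had bases 2 to 7 in common with no other sequence of the table. Over the whole sequence, seed included, likeness ran the other way. miR-182 and miR-183-5p were identical at 18 of 22 compared bases, including an unbroken run of 8 at positions 9 to 16, whereas miR-182 and miR-96-5p were identical at 12 of 23. With 4 substitutions between miR-182 and miR-183-5p, a full-length read of one differs from the other at several bases, and the mismatches allowed in counting known miRNAs are not given in the sources used here.

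The hairpins show how the arms lie, with each annotated mature sequence in capitals, and all were on the minus strand of chromosome 4 in GRCr8, in the order of transcription.
rno-mir-183, chr4:59756044-59756153: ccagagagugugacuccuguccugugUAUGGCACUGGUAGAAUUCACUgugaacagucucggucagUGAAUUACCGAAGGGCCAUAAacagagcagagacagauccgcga
rno-mir-96, chr4:59755841-59755946: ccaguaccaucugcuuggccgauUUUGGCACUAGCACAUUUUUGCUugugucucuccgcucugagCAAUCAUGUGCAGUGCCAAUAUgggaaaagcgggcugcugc
rno-mir-182, chr4:59752246-59752307: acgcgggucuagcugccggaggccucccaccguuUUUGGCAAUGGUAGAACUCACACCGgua

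Only 97 bases separated rno-mir-183 from rno-mir-96, and 3533 bases separated rno-mir-96 from rno-mir-182. The cluster lay between the protein-coding genes Nrf1 and Ube2h and in neither of them, within a span of 3908 bases. A further annotated miRNA gene, Mir3553, lay on the plus strand over 106 bases of rno-mir-183, and its mature sequence holds the exact reverse complement of rno-miR-183-5p. The count table used here has no row for it. The annotated rno-mir-182 hairpin was 62 nt long, against 106 and 110 nt for the others, with its mature sequence at bases 35 to 59. The entry stops soon after this sequence, at base 62, so that the position within it does not tell the arm. In rno-mir-183 and rno-mir-96, whose entries hold both arms, the main arm began at bases 27 and 24, on the 5′ side. RefSeq gives no opposite arm for rno-mir-182, and no row of the count table was named for one, so that its arm use was not measured here.

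The cluster was made up mostly of miR-182. Its 6 rows held 635482 reads over the 8 libraries. Of these, 78.6% were on rno-miR-182, 19.9% on rno-miR-183, 1.45% on rno-miR-96 and 0.0234% on rno-miR-183*. In the control group rno-miR-182 ranked 24 among the 620 rows by mean CPM, while rno-miR-183 ranked 44 and rno-miR-96 ranked 127, and in the AA group the ranks were 24, 47 and 124. Beside rno-miR-182 in the control order were let-7i at 4373 ± 965 CPM and let-7c at 3729 ± 1035 CPM (SD, n = 4 each), which did not differ from its 4026 ± 1068 CPM beyond their spread. Likewise rno-miR-183 lay between miR-3545-3p and miR-23a, and rno-miR-96 between let-7d* and miR-497, within the SD of each. Adaptor ligation favours some sequences, so that reads of different miRNAs rank them only roughly. The most abundant miRNA of the kidney libraries, miR-378, had 26503520 reads in all.

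1 library, AA4, stood apart from the rest of its group in its reads on the cluster. It held 1.01% of its reads on the cluster, while AA1, AA2 and AA3 held 0.468%, 0.450% and 0.473%. The control libraries CTL1 to CTL4 held 0.589%, 0.400%, 0.415% and 0.501%. The group means were 0.477% ± 0.0874 for control rats and 0.599% ± 0.271 for AA rats (SD, n = 4 each), and 3 of the 4 AA libraries lay inside the control range. Without AA4 the AA mean was 0.464%, below that of the control rats.

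rno-miR-182 was measured at 68510, 45059, 47247 and 57933 reads in CTL1 to CTL4 and at 47432, 50649, 49743 and 132978 in AA1 to AA4. Scaled to CPM, these were 5137, 3316, 2930 and 4719 CPM for control rats and 3666, 2748, 3422 and 7877 CPM for AA rats. AA4 was the highest of the 8 libraries and AA2 the lowest, and the groups overlapped. The log2 fold change between AA and control was 0.14 (95% interval -0.58 to 0.86, standard error 0.33), which did not pass the test (adjusted p = 0.787, quasi-likelihood test of edgeR, adjusted by Benjamini-Hochberg over 367 miRNAs). Without AA4 the direction turned and the log2 fold change became -0.40 (adjusted p = 0.238 from edgeR, standard error 0.20), and without CTL3 it was -0.12.

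rno-miR-183 was the member whose group means lay closest together. Its reads were 20304, 12808, 16302 and 9986 in CTL1 to CTL4 and 14466, 16509, 14515 and 21654 in AA1 to AA4. In CPM the control libraries were at 1523, 943, 1011 and 813 and the AA libraries at 1118, 896, 999 and 1283. All 4 AA values fell within the control range, and CTL1 was the highest of the 8. The means were 1072 ± 311 and 1074 ± 166 CPM (SD, n = 4 each). On the log2 scale the change was 0.00 (95% interval -0.47 to 0.47, standard error 0.21, adjusted p = 0.998 from edgeR). Its sign carried no weight, since it was negative in 9 of 17 alternative fits.

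rno-miR-96, the third hairpin product and the scarcest of the main arms, had 1062, 829, 925 and 896 reads in CTL1 to CTL4 and 860, 1249, 1064 and 2345 in AA1 to AA4. This corresponded to 79.6, 61.0, 57.4 and 73.0 CPM for control rats and 66.5, 67.8, 73.2 and 139 CPM for AA rats. As with rno-miR-182, AA4 was well above the other libraries, and the other 3 AA libraries were inside the control range. The log2 fold change was 0.35 (95% interval -0.25 to 0.96, standard error 0.27, adjusted p = 0.390 from edgeR), and it was -0.07 without AA4 (adjusted p = 0.799 from edgeR).

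**Figure D1:**
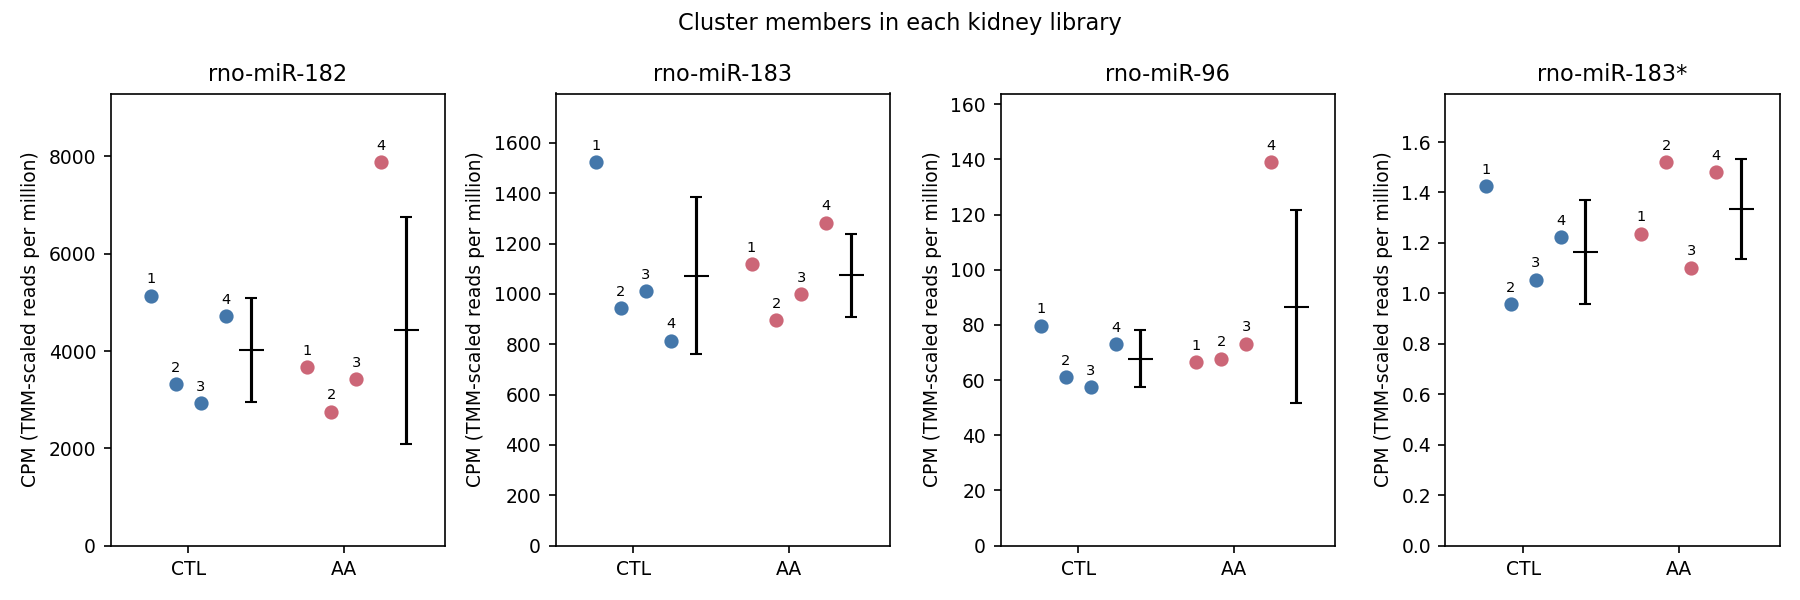
CPM (TMM-scaled, linear axes from 0) of the 4 tested rows of the cluster in the control (CTL, blue) and AA (red) libraries, each point 1 rat with its library number, and black marks the mean with SD (n = 4). AA4 is the highest point for rno-miR-182 (7877) and rno-miR-96 (139), and the groups overlap in every panel.

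The passenger arms were rare in both groups. rno-miR-183* had 19, 13, 17 and 15 reads in CTL1 to CTL4 and 16, 28, 16 and 25 in AA1 to AA4, or 1.16 ± 0.205 and 1.33 ± 0.200 CPM (SD, n = 4 each). The groups overlapped, and its log2 fold change of 0.20 (95% interval -0.38 to 0.78, standard error 0.26) did not pass the test (adjusted p = 0.628 from edgeR). Of the reads on both arms of the miR-183 hairpin, the star arm took 0.118% over all libraries (95% Wilson interval 0.100% to 0.138%, counting error only), which is 149 of 126693 reads. Single libraries ranged from 0.0935% in CTL1 to 0.169% in AA2, and their intervals overlapped. rno-miR-96* had 7 reads in all, 1 in CTL2, 2 in AA1 and 4 in AA3, and rno-mir-183* had 1 read, in CTL3. Only AA3 was above the limit of 3 reads for rno-miR-96*, so that no change between the groups was detectable at this depth. For the miR-96 hairpin the star arm was 0.0758% of 9237 reads (95% Wilson interval 0.0367% to 0.156%).

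None of the 4 tested rows of the cluster was called, against 16.3% of the 367 miRNAs tested in the same comparison, of which 10.4% were called higher in the AA group and 5.99% lower. With edgeR, 0 of the 4 rows had an unadjusted p under 0.05, against 30.0% of all tested miRNAs. The DESeq2 Wald test also called 0 of the 4, against 21.4% of the 355 miRNAs for which it gave an adjusted p, with 12.4% higher and 9.01% lower. Groups without overlap were seen in 0 of the 4 rows and in 24.3% of all tested miRNAs. Among the 367 miRNAs the log2 fold change had a median of 0.06. Over the 17 alternative fits, a member was called in 0 of 68 tests, with adjusted p-values between 0.171 and 0.998. The intervals of the log2 fold changes state what 4 rats a group could resolve. A change of rno-miR-183 beyond 0.47 in either direction lay outside its interval, whereas for rno-miR-182 and rno-miR-96 the intervals reached 0.86 and 0.96 upwards.

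**Figure D2:**
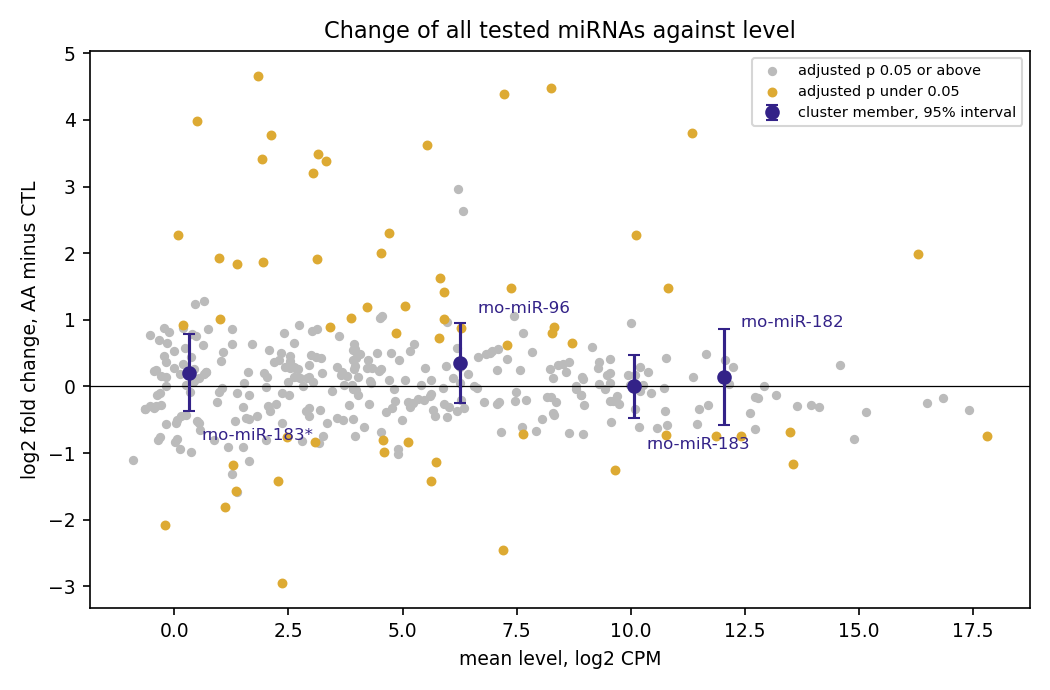
Log2 fold change (AA minus CTL) against mean level (log2 CPM) for the 367 tested miRNAs, with miRNAs at an adjusted p under 0.05 in yellow, others in grey, and the 4 cluster rows in dark blue with 95% intervals. The intervals of the 4 rows all cross 0, and their levels span from rno-miR-183* to rno-miR-182.

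Ratios of members within a library need no scaling between libraries and show whether the hairpins moved together. The ratio of rno-miR-182 to rno-miR-183 reads was 3.37, 3.52, 2.90 and 5.80 in CTL1 to CTL4 and 3.28, 3.07, 3.43 and 6.14 in AA1 to AA4. Both libraries numbered 4 were high, and the other 6 lay between 2.90 and 3.52. The ratio of rno-miR-96 to rno-miR-183 was also highest in these 2 libraries, with 0.0897 in CTL4 and 0.108 in AA4 against 0.0523 to 0.0757 in the other 6. In contrast, rno-miR-182 to rno-miR-96 was 64.5, 54.4, 51.1 and 64.7 for control rats and 55.2, 40.6, 46.8 and 56.7 for AA rats. Here CTL4 and AA4 were the highest of their groups by a small margin, with CTL1 and AA1 next to them. Thus miR-182 and miR-96 were both high relative to miR-183 in CTL4 and AA4, and the 2 libraries came from different groups.

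None of the 4 ratios passed the exact permutation test between AA and control. The log2 ratio of rno-miR-182 to rno-miR-183 was 1.91 ± 0.43 for control rats and 1.93 ± 0.46 for AA rats (SD, n = 4 each; exact permutation test, two-sided, p = 0.857, adjusted p = 0.857 over 4 ratios). In the 6 libraries numbered 1 to 3, the difference between the groups was 0.00. For rno-miR-96 to rno-miR-183 the difference was 0.26 (standard error 0.25, exact permutation p = 0.343, adjusted p = 0.609), and it was 0.10 without AA4 and 0.42 without CTL4. For rno-miR-182 to rno-miR-96 it was -0.24 (standard error 0.14, exact permutation p = 0.171, adjusted p = 0.609), which exceeded the SD of either group (0.17 and 0.23), and it was -0.15 without AA2. For rno-miR-183* to rno-miR-183 it was 0.16 (standard error 0.21, exact permutation p = 0.457, adjusted p = 0.609), from 0.015 without AA2 to 0.31 without CTL4. The smallest p that 4 against 4 rats allow is 0.0286, which over 4 ratios could not pass 0.05 unless several ratios reached it.

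**Figure D3:**
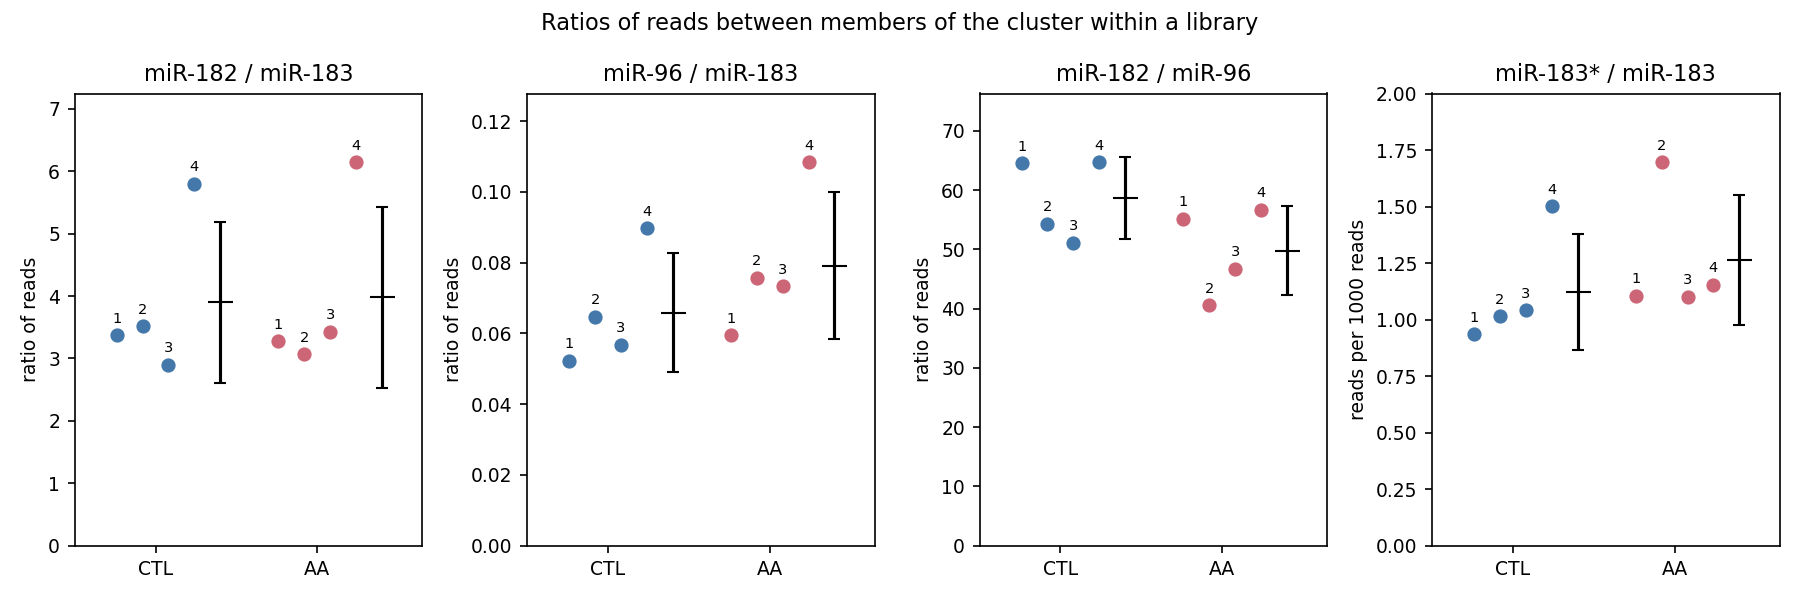
Ratios of reads between members of the cluster in each library (linear axes from 0; the last panel in reads of rno-miR-183* per 1000 reads of rno-miR-183), with points for single rats labelled by library number and black marks for the mean and SD (n = 4). In the first panel CTL4 (5.80) and AA4 (6.14) lie above the other 6 libraries, which lie between 2.90 and 3.52.

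How tightly the members moved together can be read from the SD of the log2 ratio within groups, set beside the 8001 pairs of the 127 miRNAs at or above the control level of rno-miR-96. The SD was 0.20 for rno-miR-182 and rno-miR-96, and 7.40% of all pairs were tighter. It was 0.35 for rno-miR-96 and rno-miR-183 (35.3% of pairs tighter) and 0.45 for rno-miR-182 and rno-miR-183 (56.1% of pairs tighter), while the median over pairs was 0.42. In the libraries numbered 1 to 3 alone, the order of the pairs was another. The SD of rno-miR-182 to rno-miR-183 was 0.12, with 7.05% of pairs tighter. For rno-miR-96 and rno-miR-183, 20.0% of pairs were tighter, and for rno-miR-182 and rno-miR-96, 27.9%. The libraries numbered 4 were left out after the ratio of rno-miR-182 to rno-miR-183 was seen to be high in them. A narrower spread of this pair without them was therefore fixed beforehand and is no separate result. Among other miRNAs with neighbouring genes, the SD was 0.06 for miR-200a to miR-200b, 0.13 for miR-200b to miR-429, 0.18 for miR-200a to miR-429 and 0.16 for miR-141 to miR-200c. It was 0.70 for miR-192 to miR-194, of which miR-194 also has a gene beside miR-215 on another chromosome, and 0.18 for this pair in the libraries numbered 1 to 3. The median over all pairs also narrowed there, to 0.27.

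Deviations from the group means, on the log2 CPM scale over 8 libraries, described which miRNAs varied most like each member. The closest to rno-miR-182 among the 366 others were miR-542-5p (r = 0.96), rno-miR-96 (r = 0.96) and miR-34c (r = 0.95), and the closest to rno-miR-96 were rno-miR-182, miR-542-5p and miR-152* (r = 0.96, 0.96 and 0.95). rno-miR-183 ranked 91 in likeness to rno-miR-182 (r = 0.56), but in the 6 libraries numbered 1 to 3 their r was 0.95. In these 6, r with rno-miR-182 was lower for miR-542-5p and rno-miR-96, at 0.88 each. The closest to rno-miR-183 were miR-92a-1*, miR-449a and let-7b (r = 0.96, 0.95 and 0.93), of which miR-92a-1* had 6 to 38 reads and miR-449a 2 to 176 reads a library. miR-34c, a target of p53, and miR-449a, of the same seed family, rose in the AA group, with log2 fold changes of 3.80 and 3.41 (adjusted p = 6.09e-05 and 0.00121 from edgeR), which the removal of the group means keeps out of the likeness. With rno-miR-182, the epithelial miRNAs miR-429, miR-200c, miR-200b, miR-200a and miR-141 had r = -0.65, -0.69, -0.83, -0.85 and -0.88. The points share 2 groups of 4 libraries and their scaling. Without CTL4 and AA4, r of these 5 with rno-miR-182 was 0.28, -0.54, -0.40, -0.53 and -0.79, so that miR-429 turned sign, while r of miR-34c was 0.87. With rno-miR-183 over 8 libraries, r of the 5 ran from -0.28 for miR-200a to 0.20 for miR-429. Without CTL4 and AA4 these were 0.34 for miR-429, -0.38 for miR-200c, -0.32 for miR-200b, -0.48 for miR-200a and -0.74 for miR-141, and r of let-7b was 0.98.

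In AA4, rno-miR-182 lay 1.28 above the mean of AA1 to AA3 on the log2 CPM scale, the 16th highest deviation of 367 miRNAs, and rno-miR-96 lay 1.01 above, the 34th. rno-miR-183 was 0.36 above and ranked 121. In CTL4 the deviations were 0.36 for rno-miR-182, 0.16 for rno-miR-96 and -0.48 for rno-miR-183. In CPM, rno-miR-182 in AA4 lay above the other AA libraries, whereas in CTL4 it lay within the range of CTL1 to CTL3 and rno-miR-183 lay below theirs. The labels name no batch or date for the libraries numbered 4.

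**Figure D4:**
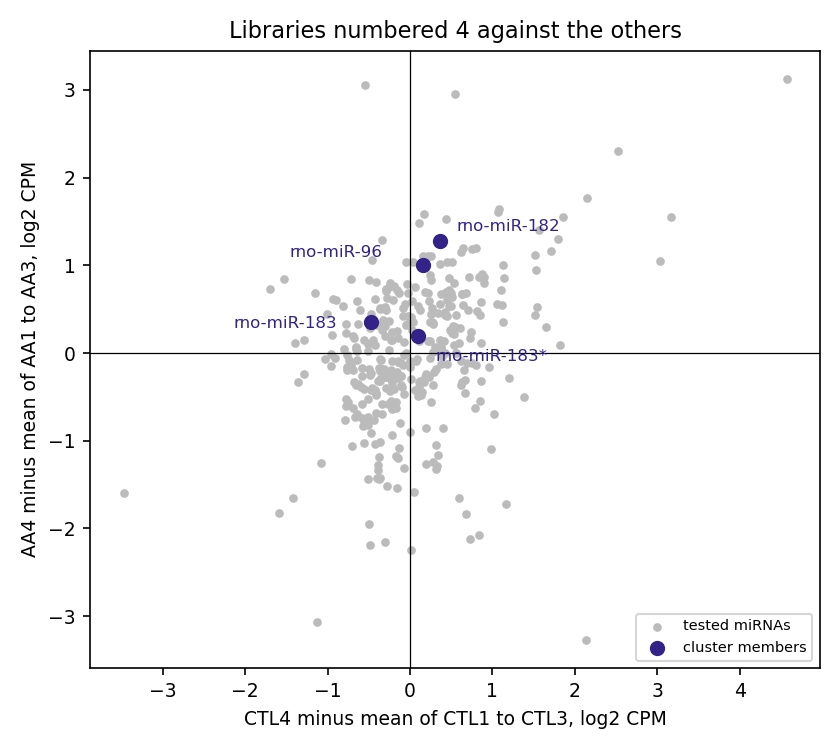
Deviation of AA4 from the mean of AA1 to AA3 (vertical) against that of CTL4 from the mean of CTL1 to CTL3 (horizontal), both in log2 CPM, for the 367 tested miRNAs (grey) and the 4 cluster rows (dark blue). rno-miR-182 and rno-miR-96 lie above 0 on both axes, while rno-miR-183 is positive in AA4 (0.36) and negative in CTL4 (-0.48).

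None of the other 7 epithelial miRNAs tested (miR-203, miR-205, miR-429, miR-200c, miR-141, miR-200b and miR-200a) was called by edgeR, against 16.3% of all tested miRNAs. The DESeq2 Wald test also called 0, with no adjusted p for miR-205. An unadjusted p under 0.05 was found for 2 of the 7 and for 30.0% of the 367. Their median log2 fold change was -0.07, and its sign did not hold, since it was 0.14 with scaling to total counts, 0.02 without CTL1 and -0.21 without CTL4. miR-200a and miR-200b, which maintain the epithelial state by repressing ZEB factors, had log2 fold changes of -0.34 and -0.27 (adjusted p = 0.294 and 0.403 from edgeR). The 2 with an unadjusted p under 0.05 were miR-203, a miRNA of differentiating epithelium, at -0.61 (adjusted p = 0.113 from edgeR), and miR-205 at 2.63 (adjusted p = 0.0975 from edgeR). Of miR-205, AA2 held 8166 reads and the other AA libraries at most 730, and without AA2 its log2 fold change was 0.63. In AA4, where rno-miR-182 was highest, the summed level of these 7 was the lowest of the 8 libraries, at 6198 CPM against 8113 to 12316 in the others.

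Markers of other cell types were read in the same libraries, and in a whole kidney fewer cells of a type and less RNA per cell cannot be told apart. Their counts stand against the 10.4% of all tested miRNAs called higher in the AA group and the 5.99% called lower by edgeR, and the 12.4% and 9.01% by the DESeq2 Wald test. Of 4 leukocyte miRNAs, edgeR called 2 higher, miR-142-3p (log2 fold change 1.47, adjusted p = 0.00182) and miR-223 (1.02, adjusted p = 0.0195). miR-142-3p kept its call without any 1 library. miR-223 lost its call without CTL1, CTL2, CTL3, AA1 or AA4, with an adjusted p from edgeR of 0.0864 at most. Lost calls were common, since edgeR calls over all tested miRNAs fell from 60 to between 35 and 51 without 1 library. miR-150, at a log2 fold change of 0.58, did not pass with edgeR (adjusted p = 0.0617) and passed with the DESeq2 Wald test (adjusted p = 0.0244), which called 3 of the 4. miR-142-5p passed with neither. The summed level of the 4 was 1264, 1089, 1164 and 914 CPM in CTL1 to CTL4 and 2435, 2930, 2057 and 4121 CPM in AA1 to AA4. AA4 was thus highest here too, the groups did not overlap, and miR-142-3p was the most abundant.

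Of 4 tubule miRNAs, 2 were called lower by edgeR and by the DESeq2 Wald test, miR-194 (log2 fold change -0.73, adjusted p = 0.0499 from edgeR) and miR-204 (-0.80, adjusted p = 0.0337 from edgeR). Each lost its edgeR call without any of 5 libraries, CTL1, CTL2, CTL4, AA2 or AA3 for miR-194 and CTL1, CTL2, CTL4, AA1 or AA3 for miR-204, with adjusted p-values up to 0.114 and 0.0843. miR-192 at -0.79 (adjusted p = 0.199) and miR-30a, the most abundant, at -0.17 (adjusted p = 0.513) did not pass with edgeR. CTL4 held 74958 CPM of miR-192 against 21508 to 32806 in CTL1 to CTL3, and without CTL4 its log2 fold change was -0.24. Of 5 stromal and smooth muscle miRNAs, 1 was called by either tool, miR-199a-3p (0.65, adjusted p = 0.0327 from edgeR). It kept the edgeR call only without AA1, with an adjusted p of 0.138 without CTL3. miR-143, the most abundant of the 5, was at -0.36 with overlapping groups (adjusted p = 0.184 from edgeR). miR-145, miR-214 and miR-199a-5p were at 0.27, 0.50 and 0.80 and did not pass with edgeR. The summed level of the 5 was 199710 ± 26926 CPM in the control and 156170 ± 19144 CPM in the AA group (SD, n = 4 each). Neither of the 2 endothelial miRNAs was called by edgeR or the DESeq2 Wald test (median log2 fold change -0.38, and -0.18 with total counts). The same held for the 2 red blood cell miRNAs (-0.61, and -0.40 with total counts). In both lists 0 had an unadjusted p under 0.05 from edgeR, against 30.0% of all tested miRNAs. Of 6 miRNAs of the retina and neurons, which these sensory-cell miRNAs accompany there, 3 were tested and 0 called by either tool. An unadjusted p under 0.05 was found for 1 of the 3, miR-7a, and for 30.0% of all tested miRNAs. miR-7a was lower in the AA group, at -0.54 (adjusted p = 0.122 from edgeR), and its groups did not overlap. Groups without overlap were also seen in 3 of 4 leukocyte, 2 of 4 tubule and 1 of 5 stromal miRNAs. They were seen in 0 of the epithelial, endothelial and red blood cell miRNAs, and in 24.3% of all tested miRNAs. miR-9 and miR-129 were at 0.33 and -0.52, with overlapping groups. miR-124, the neuronal miRNA, was too scarce to be tested, with 1, 1, 0 and 3 reads in CTL1 to CTL4 and 7, 32, 7 and 17 in AA1 to AA4. The groups did not overlap, and the control libraries were at or under the limit of 3 reads. The others not tested, miR-7b and miR-211, went the other way with overlapping groups. Their means were 1.26 and 0.127 CPM in the control and 0.473 and 0.0763 CPM in the AA group. The part of these cell types in the values of the cluster was not tested.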

How the data were processed

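Small RNA of 4 AA and 4 control kidneys was read on a Genome Analyzer II (Illumina). The deposited counts give the reads on each known rat miRNA, which the authors made with miRanalyzer and Bowtie on miRBase, without normalization. Per the labels' processing notes DESeq was also used, in a role not given in the sources used here. Groups and numbers came from the sample titles.

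The 367 miRNAs that had 10 reads or more in 4 or more libraries were fitted with edgeR 4.0.16 in R 4.3.3 (glmQLFit, glmQLFTest, TMM, Benjamini-Hochberg, threshold 0.05). Intervals are the fold change plus or minus its standard error (size over the root of F) times the t quantile for 95%. The fit was tested on simulated counts, in which 200 of 367 miRNAs had a log2 fold change of 2 in size. It recovered 100% of these with 7 false calls. Changes as small as those of the cluster were not simulated. Ratios used a pseudocount of 0.5 reads and the exact permutation test. Likeness used log2 CPM with a prior count of 2. Alternatives were other scalings, filters, DESeq2 1.42.0, a block for the library number, and leaving out each library in turn. Settings without the libraries numbered 4, the sum of both miR-183* rows and the comparison of pair spreads were chosen after the data were seen. The members, the lists and the naming rule were chosen with earlier results of these data known. The miRNAs named are the cluster rows, the lists, the 3 closest in likeness, the neighbours in level and the most abundant. Each library is 1 rat, and libraries of a group differed by a chi-square of at least 436.8 per degree of freedom. RefSeq sequences are of GRCr8.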

Additional observations from a re-analysis of the deposited data

Results flagged for a closer look

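Over the 34 groups of 4 libraries examined, 6 values lay far from the other 3. A rate of 5% would give 1.7. The groups share libraries and miRNAs, so that 6 against 1.7 does not measure an excess over chance. The following concern AA4 and the cluster first. rno-miR-96 was at 138.9 CPM in AA4 against 66.5 to 73.2 in the other AA libraries. The cluster held 1.01% of the reads in AA4 against 0.450% to 0.473%. The ratio of rno-miR-182 to rno-miR-183 was 6.14 in AA4 against 3.07 to 3.43. The ratio of rno-miR-183* to rno-miR-183 was 0.00170 in AA2 against 0.00110 to 0.00115, from 28 star reads. miR-122, the liver miRNA, was at 53.0 CPM in CTL1 against 4.05 to 5.89 in the other control libraries, and at 523 CPM in AA2 against 0.696 to 2.96. No cause was tested for these values.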

How the results depend on the processing

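No row of the cluster passed the threshold under any of the 17 alternative fits. Without 1 library at a time, the log2 fold change ranged from -0.40 to 0.28 for rno-miR-182, from -0.19 to 0.22 for rno-miR-183, from -0.0747 to 0.44 for rno-miR-96 and from 0.05 to 0.31 for rno-miR-183*. That of rno-miR-183 turned to -0.0454 with DESeq2 size factors and with the DESeq2 Wald test, and to -0.077 with scaling from the counts less the 3 most abundant miRNAs. In the 6 libraries numbered 1 to 3, rno-miR-182 was at -0.25 and rno-miR-183 at -0.24. Without 1 library, the difference in log2 ratio of rno-miR-182 to rno-miR-183 ranged from -0.21 to 0.23, that of rno-miR-96 to rno-miR-183 from 0.10 to 0.42, that of rno-miR-182 to rno-miR-96 from -0.31 to -0.15 and that of rno-miR-183* to rno-miR-183 from 0.015 to 0.31. Calls over all miRNAs ranged from 35 (without CTL2) to 51 without 1 library, with 24 to 33 higher and 10 to 21 lower, and 37 without CTL1. With total counts, 14 were lower, 79.4% of calls were higher against 63.3%, and the median change of the 367 miRNAs went from 0.06 to 0.27, with rno-miR-182 at 0.36, rno-miR-183 at 0.21 and rno-miR-96 at 0.57. Less the 3 most abundant miRNAs, the share of the cluster was 1.11% in the control and 1.12% in the AA group.

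Without 1 library, medians ranged from -0.21 to 0.02 for the epithelial list, from -0.99 to -0.45 for the tubule, from 0.18 to 0.60 for the stromal, from -0.57 to -0.36 for the endothelial, from 0.58 to 0.91 for the leukocyte, from -0.91 to -0.46 for the red blood cell, from -0.75 to -0.36 for the retina and neuron list and from -3.37 to 4.73 for miR-122. With total counts they were 0.14 for the epithelial, 0.72 for the stromal, -0.18 for the endothelial, 1.01 for the leukocyte, -0.40 for the red blood cell and -0.30 for the retina and neuron list. In the libraries numbered 1 to 3 the stromal median was 0.37 and the leukocyte 0.66. Scaling less the 3 most abundant gave -0.47 for the endothelial and 0.70 for the leukocyte list. The causes were not tested.

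With the library number as a block, endothelial and liver medians were -0.47 and -1.26, 78 miRNAs were called against 60, and log2 fold changes were 0.05, 0.03, 0.29 and 0.20 for rno-miR-182, rno-miR-183, rno-miR-96 and rno-miR-183*. Deviations of same-numbered libraries correlated at 0.05, 0.20, 0.14 and 0.35 across miRNAs, so that the numbers were not taken as pairs, since 1 of the 4 was not over 0.1. Of the 8 libraries, 6 correlated best with the library of their own number. For rno-miR-96 to rno-miR-183 and rno-miR-182 to rno-miR-96, the same-numbered differences had 1 sign, with an exact sign-flip p of 0.125, the smallest that 4 pairs allow. At 13 to 28 reads, rno-miR-183* is limited by counting error.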
